A study of Mus musculus with 6 samples.

Results

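The genes described here are the receptors of the EGF family, their ligands and the related receptor gene Met: Egfr, Erbb2, Erbb3 and Met as receptors, and Areg, Ereg, Hbegf, Btc, Tgfa and Nrg1 as ligands. They were taken by gene name from the deposited table, which holds 54532 genes, and all 10 were found. RNA was sequenced from T cells of C57BL/6 mice (6 to 8 weeks old), taken from the spleen with a pan T-cell isolation kit, kept in IL-2 (10 ng/mL), pre-activated with anti-CD3/CD28 beads for 72 h and then grown together with ID8, a cell line of mouse ovarian cancer. The ID8 cells had been pretreated with 40 µM cisplatin (3 libraries, called cisplatin) or with PBS (3 libraries, called control), and nothing else is given as differing between the groups. The methods call the replicates biological. Whether they are separate mice or separate cultures of the same cells is given neither there nor in the labels, and p-values measure the spread between these libraries. How the T cells were separated from the ID8 cells before RNA extraction is not given in the sources used here.

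ErbB receptors are tyrosine kinases of the cell surface that work in pairs. Egfr is activated by ligands such as Areg and Tgfa. Erbb2 has no known ligand of its own and serves as a partner, Erbb3 has a weak kinase and binds neuregulins such as Nrg1, and Met is the separate receptor of hepatocyte growth factor. The ligands are made as membrane precursors that proteases cut free, and the receptors signal through the Ras-ERK and PI3K pathways. These receptors are known chiefly from epithelial cells and carcinomas, while some of the ligands, Areg among them, are also made by immune cells.

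Levels are given as FPKM, which is reads scaled to gene length and to the depth of the library, so that genes can be compared with each other. The libraries held 30606569 to 32169496 reads on genes, and reads per gene were rebuilt from the FPKM. Groups were compared with limma on log2(FPKM + 0.1) over the 15874 genes whose mean reached 0.5 FPKM, with p-values adjusted over all of them by the Benjamini-Hochberg method, and a gene was called where the adjusted p was under 0.05 and the level changed 2-fold or more. Fold changes on this scale understate those of low genes. The libraries held RNA of several cell types. All 22 T-cell markers were higher with cisplatin at an adjusted p under 0.05 from limma, with summed levels of 3128 to 3199 FPKM against 1978 to 2106 FPKM in control. Of 24 ID8 (epithelial, mesothelial and mesenchymal) markers, 19 were tested and 17 were called lower. Their summed levels were 264 to 272 FPKM with cisplatin and 1741 to 1832 FPKM in control, and Krt19, a keratin, went from 646 ± 18.1 to 52.9 ± 1.46 FPKM (SD, n = 3 each). Krt7, Muc16, Igfbp5, Cldn4 and Tagln averaged less than the minimum level, and none of the ID8 markers was at 0. The 10 B-cell markers were higher at an adjusted p under 0.05 from limma, with summed levels of 3638 to 3711 FPKM against 1700 to 1787 FPKM. Of 10 tested myeloid markers, 7 were higher and 2 lower (138 to 158 FPKM summed against 106 to 113 FPKM), and of 5 tested mast cell and basophil markers 3 were higher (25.1 to 28.2 FPKM against 9.46 to 12.5 FPKM). Of 8 fibroblast markers, 2 were tested, and Col3a1 was at 0 in every library. Dcn was lower, and Thy1, which is also among the 22 T-cell markers, was higher. In such mixed RNA, a smaller number of cells of a type and a smaller amount of RNA per cell cannot be told apart.

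All 4 receptors and 3 of the 6 ligands, Btc, Hbegf and Tgfa, were lower in the cisplatin than in the control co-cultures, on the deposited FPKM scale. Their mean levels were 2.64 to 9.38 times lower, Erbb3 the least and Erbb2 the most. Ereg and Areg were tested and not called, and Nrg1 lay below the minimum level. Thus 7 of 9 tested genes were called lower and 0 higher, where 12.8% and 4.11% of all tested genes were. By the adjusted p of limma alone (under 0.05), 7 were lower and 0 higher, against 29.0% and 27.5% of all tested genes. The groups did not overlap for 7 of the 9, against 64.2% of all tested genes, and in these 7 every cisplatin library lay below every control library, as in 32.3% of all tested genes. The median log2 fold change was -1.60 over the 9 tested genes and 0.03 over all tested genes. Relative to the ID8 markers, a scaling described further on, Erbb3, Met, Hbegf and Tgfa instead had log2 fold changes of 0.48 to 0.86. They stood below the median of all tested genes, which was 2.25 on that scale.

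**Figure D1:**
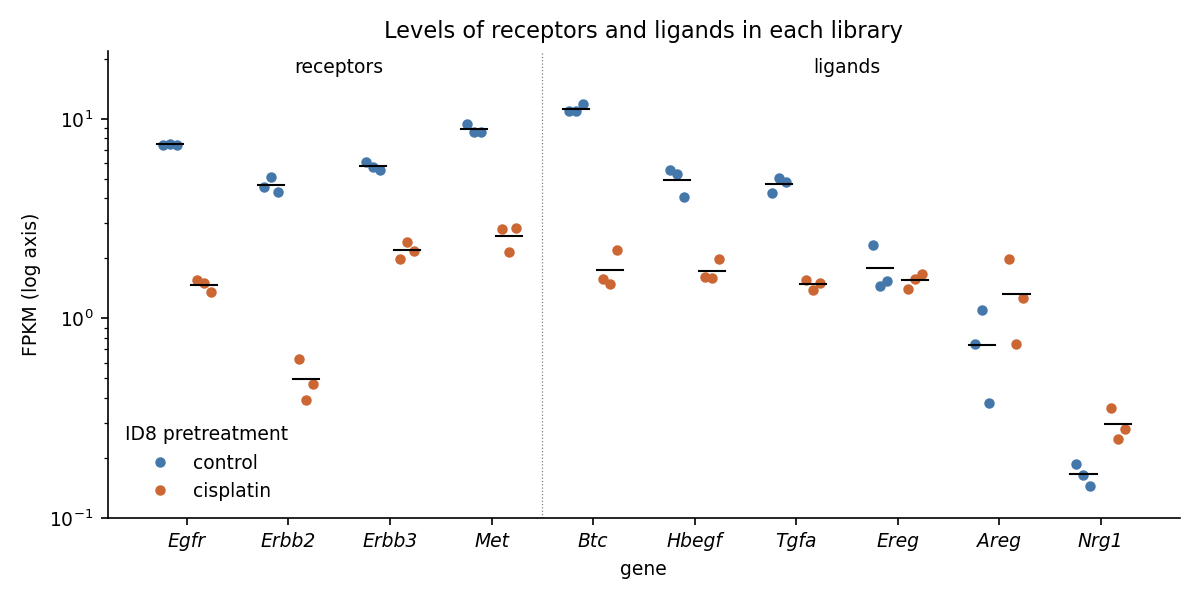
Levels of the 4 receptors and 6 ligands in each library, as FPKM on a log axis, with control libraries in blue, cisplatin libraries in orange and group means as black bars (3 libraries each). The groups are apart for the 4 receptors, Btc, Hbegf and Tgfa (cisplatin lower) and for Nrg1 (cisplatin higher), and they overlap for Ereg and Areg.

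Egfr, the receptor of EGF itself, lies on the plus strand of chromosome 11, between positions 16752203 and 16918158 of GRCm38, and codes for protein, as do all 10 genes. It had 7.44, 7.52 and 7.43 FPKM in the control libraries and 1.56, 1.51 and 1.36 FPKM in the cisplatin libraries. The control libraries were nearly alike, and the groups lay far apart. By limma it changed by -2.27 on the log2 scale, with a standard error of 0.08 and an adjusted p of 1.2e-06, a mean level 5.06 times lower, with 500 to 570 reads in each cisplatin library and 2530 to 2583 in each control library.

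Erbb2, the partner receptor without a known ligand, is also on chromosome 11, from 98412470 to 98437716 on the plus strand. Its levels were 4.54, 5.11 and 4.28 FPKM in control and 0.629, 0.388 and 0.468 FPKM with cisplatin. It was the lowest of the 4 receptors in both groups. Its change of -3.01 on the log2 scale, with a standard error of 0.18 and an adjusted p of 1.5e-05 from limma, rested on 67 to 106 reads in each cisplatin library. With a pseudocount of 1 it was -1.92, against -2.16 for Btc. The last 9 bases of Erbb2 overlap Mien1 on the other strand, which had 6.35 ± 0.962 FPKM in control and 7.13 ± 0.789 FPKM with cisplatin (SD, n = 3 each).

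Erbb3, the neuregulin receptor with the weak kinase, lies on chromosome 10 from 128567523 to 128589652 on the minus strand. It had 6.07, 5.72 and 5.57 FPKM in control and 1.98, 2.42 and 2.18 FPKM with cisplatin. The groups did not overlap, and the fall was the smallest of the receptors. Erbb3 changed by -1.36 on the log2 scale (limma, standard error 0.09 and adjusted p 2.6e-05).

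Met, on chromosome 6 from 17463800 to 17573980 on the plus strand, encodes the receptor of hepatocyte growth factor. Its levels were 9.42, 8.63 and 8.56 FPKM in control and 2.80, 2.15 and 2.83 FPKM with cisplatin. It was the highest receptor in every control library. The change by limma was -1.74 on the log2 scale, with a standard error of 0.12 and an adjusted p of 2.4e-05.

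The receptors did not fall alike, and their proportions within a library, which no scaling between libraries can change, shifted. A different mix of cell types can change such proportions, and its part here was not tested. Erbb2 made up 17.3% ± 1.38 of the summed FPKM of the 4 receptors in control and 7.29% ± 1.56 with cisplatin (SD, n = 3 each). Erbb3 took the opposite course, from 21.6% ± 0.456 to 32.6% ± 4.51. Egfr went from 27.9% ± 0.833 to 21.8% ± 1.74, and for these 3 receptors every cisplatin library lay on one side of every control library. The share of Met, 33.1% ± 1.15 in control and 38.3% ± 4.36 with cisplatin, overlapped between the groups. The log2 ratio of Erbb2 to Erbb3, a pair chosen after its values were seen, was taken with 0.1 added to each FPKM. It was -0.41, -0.16 and -0.37 in the control libraries and -1.52, -2.37 and -2.01 in the cisplatin libraries. The groups thus differed by 1.65 on the log2 scale with no overlap. With the added 0.1 this difference is understated and, unlike the shares, depends slightly on the scaling. These proportions are given without a test, since 3 libraries against 3 cannot reach an exact permutation p under 0.1.

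Among the ligands, Areg, Ereg and Btc stand together with Epgn, a further EGFR ligand, in a stretch of 375531 bases on chromosome 5 that holds no other protein-coding gene in the deposited annotation. The bases before Btc and Areg are shown because Btc was called lower and its neighbour Areg was not, and those before Egfr because it is the receptor that both ligands bind. The sequences are the 250 bases before each gene's start (RefSeq, GRCm38.p6), written along the gene's strand, at chr5:91402995-91403244 on the minus strand for Btc, chr5:91139349-91139598 on the plus strand for Areg and chr11:16751953-16752202 on the plus strand for Egfr. Capitals mark matches on either strand to a cAMP response element (TGACGTCA), an AP-1 site (TGANTCA), a GC box (GGGCGG) or a TATA box (TATAAA).
Btc: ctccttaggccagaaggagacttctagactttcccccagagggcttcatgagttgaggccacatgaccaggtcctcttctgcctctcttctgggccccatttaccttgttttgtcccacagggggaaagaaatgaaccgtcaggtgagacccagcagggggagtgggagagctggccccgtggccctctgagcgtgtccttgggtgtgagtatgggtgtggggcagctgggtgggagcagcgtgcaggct
Areg: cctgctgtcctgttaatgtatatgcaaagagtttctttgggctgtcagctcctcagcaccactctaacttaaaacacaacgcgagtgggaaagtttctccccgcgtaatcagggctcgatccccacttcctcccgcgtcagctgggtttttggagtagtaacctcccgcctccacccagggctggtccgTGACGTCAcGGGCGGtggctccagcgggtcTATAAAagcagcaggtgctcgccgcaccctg
Egfr: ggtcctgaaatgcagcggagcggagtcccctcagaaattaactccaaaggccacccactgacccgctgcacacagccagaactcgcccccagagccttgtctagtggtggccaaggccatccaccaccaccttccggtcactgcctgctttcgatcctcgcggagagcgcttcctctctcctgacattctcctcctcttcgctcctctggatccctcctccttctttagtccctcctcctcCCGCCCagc
The Areg window held a cAMP response element that ends 53 bases before the gene's start, a GC box ending 46 bases before it and a TATA box ending 25 bases before it. The Btc window held none of these letters, and the Egfr window a single GC box. Among all 32851 promoter windows of this length, 1.55% held the cAMP response element, 6.75% the AP-1 site, 32.7% the GC box and 12.4% the TATA box. Of the 10 genes, 6 had a window in the table (Egfr, Erbb2, Met, Btc, Tgfa and Areg). The window of Met held an AP-1 site and 3 GC boxes, that of Tgfa 2 GC boxes, and that of Erbb2 no match. The Met window, 17463707 to 17463956, reached past the deposited gene start of 17463800. Its AP-1 site and the GC boxes ending 111 and 14 bases before the window's end thus lie inside the deposited gene. The Erbb2 window also reached past the deposited start, ending at 98412483 against 98412470. A match of letters does not show that a factor binds there.

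Btc (betacellulin), which binds Egfr and Erbb4, is on the minus strand of chromosome 5 from 91357261 to 91402994. It had 10.9, 10.96 and 11.9 FPKM in control and 1.58, 1.48 and 2.21 FPKM with cisplatin. It was the highest of the 10 genes in every control library, and no longer stood apart from the other ligands with cisplatin. Btc changed by -2.63 on the log2 scale (limma, standard error 0.15 and adjusted p 1.1e-05), a mean level 6.40 times lower.

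Hbegf, the heparin-binding ligand of Egfr and Erbb4, lies on chromosome 18 from 36504929 to 36515805 on the minus strand. Its levels were 5.53, 5.33 and 4.05 FPKM in control and 1.61, 1.60 and 1.99 FPKM with cisplatin. The control libraries were more spread than those of the other called genes, and the groups still did not overlap. By limma the change was -1.46 on the log2 scale, with a standard error of 0.15 and an adjusted p of 2.1e-04.

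Tgfa, a ligand of Egfr, lies on chromosome 6 from 86195223 to 86275719 on the plus strand. It had 4.26, 5.07 and 4.82 FPKM in control and 1.56, 1.39 and 1.502 FPKM with cisplatin. Its cisplatin libraries were close together and all below control. Tgfa changed by -1.60 on the log2 scale (limma, standard error 0.10 and adjusted p 1.9e-05).

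Ereg (epiregulin), a ligand of Egfr and Erbb4 on chromosome 5 from 91074622 to 91093646 (plus strand), had 2.34, 1.46 and 1.54 FPKM in control and 1.41, 1.58 and 1.67 FPKM with cisplatin. The groups overlapped, and control replicate 1 stood above the other 5 libraries. The difference by limma was -0.16 on the log2 scale, with a 95% interval from -0.63 to 0.31 and an adjusted p of 0.52, and it was 0.042 without that library. The first 152 bases of Ereg overlap Gm19610, an antisense transcript that fell from a mean of 20.7 reads in control to 6.67 reads with cisplatin (by -1.58 on the log2 scale, with an adjusted p of 0.021 from limma). Whether reads were counted by strand is not given in the sources used here, so reads in that overlap cannot be assigned.

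Areg (amphiregulin), a ligand of Egfr on chromosome 5 from 91139599 to 91148432 (plus strand), had 0.740, 1.10 and 0.375 FPKM in control and 1.98, 0.745 and 1.27 FPKM with cisplatin. The groups overlapped and the libraries of each were widely spread. With 14 to 78 reads per library, the spread in a group (49.0% of the mean in control and 46.6% with cisplatin) was larger than that from counting alone (19.2% and 13.8% with each read taken as independent, and 27.2% and 19.5% if each fragment gave 2 reads). The difference of 0.78 on the log2 scale was not past the test, with a 95% interval from -0.31 to 1.86 (limma, adjusted p 0.19).

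Nrg1 (neuregulin 1), a ligand of Erbb3 and Erbb4 that spans chromosome 8 from 31814551 to 32884029 on the minus strand, was the lowest of the 10 genes in both groups. It had 0.187, 0.164 and 0.145 FPKM in control and 0.355, 0.248 and 0.280 FPKM with cisplatin. These stand for 46 to 58 reads in control and 85 to 119 reads with cisplatin, and the groups did not overlap. Nrg1 was under the minimum level and was tested only in alternatives. Without a minimum level the difference was 0.57 on the log2 scale (limma, standard error 0.31 and adjusted p 0.27). It was 0.90 with limma's voom on the rebuilt reads (standard error 0.27 and adjusted p 0.0073), where 31.7% of all tested genes were higher at an adjusted p under 0.05.

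No gene of the 9 tested was called higher by limma (0 were higher at an unadjusted p under 0.05). Limma's voom, which tested all 10, called 0 higher, and 1 (Nrg1) was higher at an adjusted p under 0.05. The make-up of the ligand transcripts shifted with these unequal changes. Btc made up 47.7% ± 3.77 of the summed FPKM of the 6 ligands in control and 21.5% ± 3.13 with cisplatin (SD, n = 3 each). Areg and Ereg, the tested ligands that were not called, together rose from 10.6% ± 2.23 to 35.3% ± 3.998 of that sum. This share did not overlap between groups, although the levels of Areg and of Ereg did. Nrg1 went from 0.699% ± 0.0731 to 3.61% ± 0.525, also with no overlap. The shares of Hbegf (20.98% ± 2.83 and 21.3% ± 2.05) and Tgfa (19.99% ± 1.92 and 18.3% ± 1.42) overlapped. The summed ligands went from 23.6 ± 0.713 to 8.15 ± 0.986 FPKM and the summed ErbB receptors from 17.9 ± 0.547 to 4.16 ± 0.151 FPKM. The ratio of ligand to ErbB receptor FPKM was 1.33, 1.31 and 1.32 in the control libraries and 2.04, 1.63 and 2.22 in the cisplatin libraries. As for the receptors, the part of the cell mix in these shares and in this ratio was not tested.

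**Figure D2:**
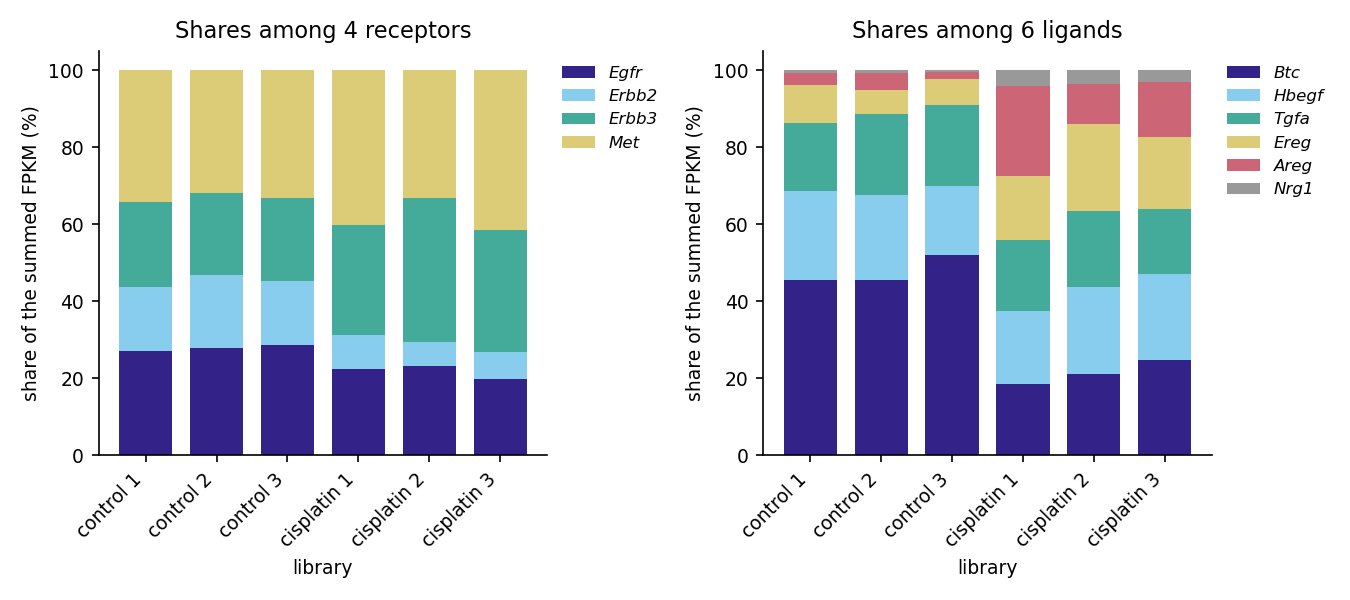
Share of each gene, in percent, of the summed FPKM of the 4 receptors (left) and of the 6 ligands (right), with a bar for each of the 3 control and 3 cisplatin libraries. Erbb2 shrank from 17.3% to 7.29% of the receptors on average, and Btc from 47.7% to 21.5% of the ligands, while Areg and Ereg together grew from 10.6% to 35.3%.

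Ranked by mean level, the control libraries gave Btc, Met, Egfr, Erbb3, Hbegf, Tgfa, Erbb2, Ereg, Areg and Nrg1. Hbegf, Tgfa and Erbb2 overlapped with their neighbours in that order, and the other neighbours were separate in every library. With cisplatin the order was Met, Erbb3, Btc, Hbegf, Ereg, Tgfa, Egfr, Areg, Erbb2 and Nrg1, and the first 7 each overlapped with the next. The wide range of the control libraries, from 11.2 ± 0.536 FPKM for Btc to 0.165 ± 0.0209 FPKM for Nrg1 (SD, n = 3 each), was thus compressed to 2.60 ± 0.383 FPKM for Met down to 0.294 ± 0.0551 FPKM for Nrg1.

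The direction of some changes depended on what the libraries were set against. Centring each library on the T-cell markers gave log2 fold changes of -3.59 for Erbb2, -3.21 for Btc, -2.85 for Egfr and -1.94 for Erbb3, with the same 7 genes called lower. Ereg stood at -0.74 on that scale (limma, adjusted p 0.015), past the adjusted p but not the fold change. The median of all tested genes was -0.55 on that scale, so relative to it the values were nearly those given above. Centring each library on the ID8 markers moved the median of all tested genes to 2.25. On that scale Egfr stood at -0.05 (limma, adjusted p 0.59), while Erbb2 (-0.79, adjusted p = 0.0026) and Btc (-0.41, adjusted p = 0.036) were lower than the ID8 markers in the cisplatin libraries. Met (0.48), Tgfa (0.62), Hbegf (0.76) and Erbb3 (0.86) were higher relative to the ID8 markers, at adjusted p-values of 1.2e-04 to 0.0033 from limma, and Ereg (2.06) and Areg (2.998) were called higher. The ID8 markers themselves had a median log2 fold change of -2.34 and ranged from -3.61 to -0.08. The part of the ID8 RNA in the falls of the receptors and ligands was not tested.

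**Figure D3:**
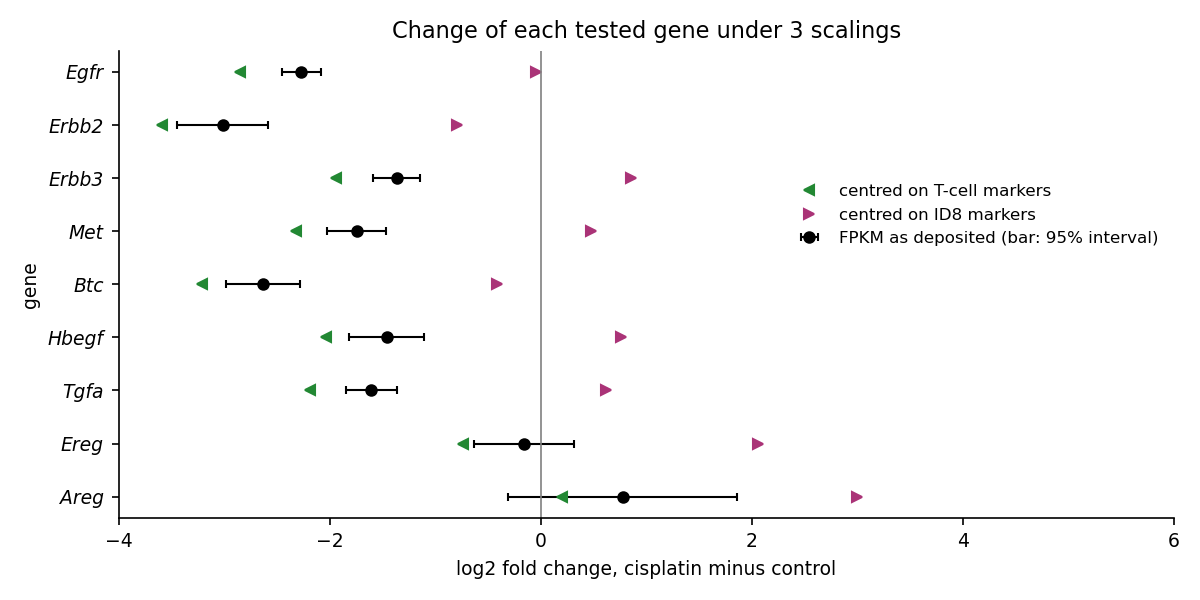
Log2 fold change (cisplatin minus control) of the 9 tested genes on the FPKM as deposited (black, with 95% intervals from limma) and after centring on T-cell markers (green) or on ID8 markers (purple). The 7 called genes lie left of 0 on both of the first scales, and on the third Erbb3, Met, Hbegf and Tgfa lie to its right and Egfr at -0.05. The median of all tested genes was 2.25 on the third scale.

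Of the other receptors and ligands of the family, Mst1r and Mst1 reached the minimum level. Mst1r, the receptor most closely related to Met, had 10.5 ± 0.278 FPKM in control and 1.19 ± 0.261 FPKM with cisplatin (SD, n = 3 each). It changed by -3.06 on the log2 scale (limma, standard error 0.15 and adjusted p 5.5e-06), and by -0.84 relative to the ID8 markers. Its ligand gene Mst1 went from 2.63 ± 0.177 to 3.77 ± 0.330 FPKM, a difference of 0.50 on the log2 scale (limma, adjusted p 0.0042) that became -0.078 after centring on the T-cell markers. Hgf, the ligand of Met, had 0.0768 ± 0.00585 FPKM in control and 0.119 ± 0.0567 FPKM with cisplatin. Egf had 0.319 ± 0.0438 and 0.370 ± 0.0448 FPKM, Nrg4 0.438 ± 0.0434 and 0.393 ± 0.0283 FPKM, and Nrg2 0.384 ± 0.0850 and 0.326 ± 0.09999 FPKM. Epgn and Nrg3 averaged at most 2.67 reads in a group. Erbb4, a receptor of Btc, Hbegf, Ereg and Nrg1, had 0.0162 FPKM in control replicate 1 and was listed at 0 in the other libraries, where a count of 0 allows up to 3 reads.

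Many genes that govern the release of the ligands were lower on the deposited FPKM scale. Of 10 tested, 6 were called lower, beside the 12.8% of all tested genes, with a median log2 fold change of -1.22. Timp3, an inhibitor of metalloproteases, had a log2 fold change of -2.27, the iRhom genes Rhbdf1 and Rhbdf2 of -1.94 and -1.29, and the protease gene Adam9 of -1.66. Adam10 and Adam17, the main proteases that shed EGFR ligands, were singled out after their values were seen. Adam10 went from 72.3 to 74.9 FPKM in control to 36.3 to 38.4 FPKM with cisplatin, a difference of -0.97 on the log2 scale (limma, adjusted p 1.2e-06), and the difference of Adam17 was -0.23 (limma, adjusted p 0.034). Relative to the ID8 markers these were 1.25 and 1.99, where the median of all tested genes was 2.25.

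Of 10 tested genes for Met partners and for the activation of its ligand, 4 were called lower, beside the 12.8% of all tested genes, and the median log2 fold change was -0.39. Plxnb2 and Plxnb1, semaphorin receptors of which the latter is known to associate with Met, had log2 fold changes of -2.23 and -1.67, and Itgb4, an integrin chain, of -2.03. St14 (matriptase), a protease that activates the Hgf precursor, had a log2 fold change of 0.60 and was past the adjusted p but not the fold change. Of 14 tested inhibitors and turnover genes of the receptors, limma placed 7 lower and 5 higher (adjusted p under 0.05), beside 29.0% and 27.5% of all tested genes. Of these 14 only Errfi1, an EGFR inhibitor induced by its signalling, was called, with a log2 fold change of -1.71 (3.03 ± 0.324 FPKM against 10.1 ± 0.0858 FPKM in control). Socs5 (-0.77), Lrig1 (-0.57) and Ptprj (-0.50) were lower on the log2 scale without being called.

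Adaptors and kinases downstream of the receptors were mixed, with 14 lower and 8 higher of 32 tested (adjusted p under 0.05 by limma), against 29.0% and 27.5% of all tested genes. The 5 called lower are a share near the 12.8% of all tested genes, and the median log2 fold change was -0.15. Gab1, a docking protein of Met and Egfr, had the largest fall, from 5.36 ± 0.428 to 0.953 ± 0.121 FPKM (log2 fold change -2.38). Ptk2 (focal adhesion kinase) and Src had log2 fold changes of -1.68 and -1.64, and Map2k1 (MEK1) of -1.30. Of 18 tested genes that ERK signalling is known to induce, 9 were called lower, beside the 12.8% of all tested genes, with a median of -0.83. Ier3 had a log2 fold change of -2.83, Phlda1 of -1.63, Dusp6 (an ERK phosphatase) of -1.57 and the ETS factor Etv4 of -1.499. Relative to the ID8 markers, Errfi1, Socs5, Lrig1, Ptprj, Map2k1, Ptk2, Src, Phlda1, Dusp6 and Etv4 had log2 fold changes above 0. The median of all tested genes was 2.25 on that scale.

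**Figure D4:**
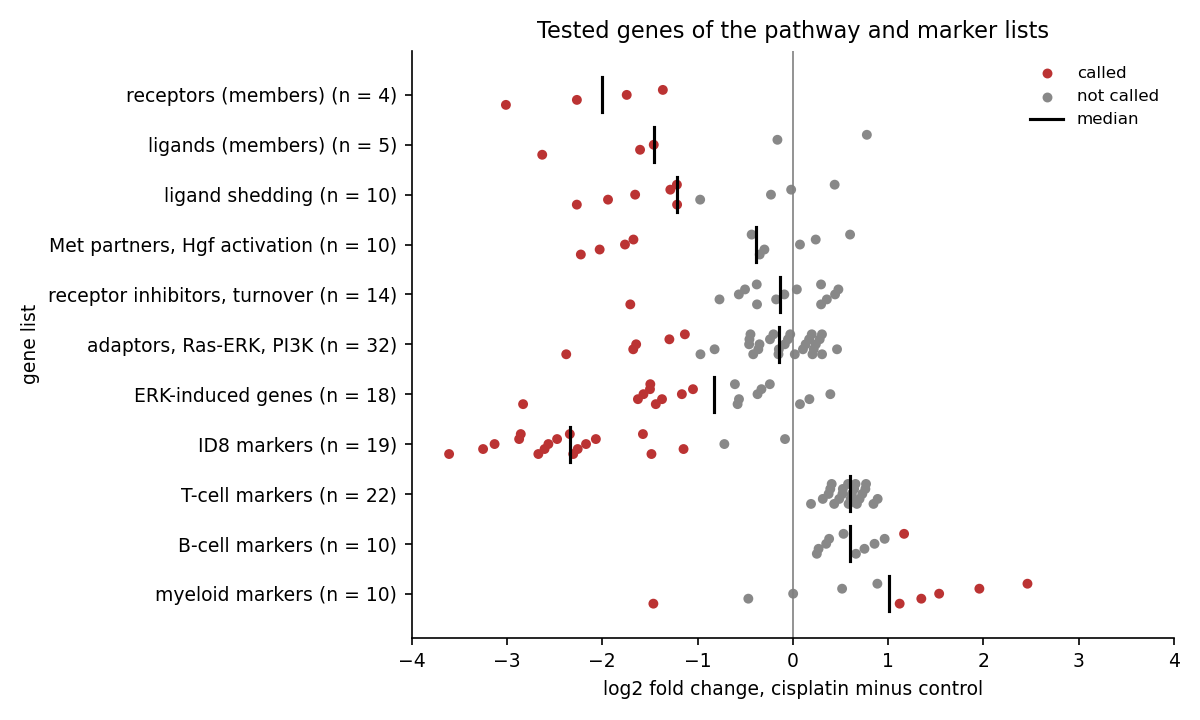
Log2 fold change (cisplatin minus control, on the FPKM as deposited) of the tested genes of the pathway, ID8, T-cell, B-cell and myeloid lists, with called genes in red, other genes in grey and medians as black bars. The medians run from -2.34 for the ID8 markers and -2.005 for the 4 receptors, over -0.83 for the ERK-induced genes and -0.15 for the adaptors and kinases, to 0.60 for the T-cell and 1.01 for the myeloid markers.

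The protein-coding genes whose profiles over the 6 libraries were most like those of Met and Btc, the receptor and the ligand with the highest mean levels, were looked for among 11174 genes that averaged 1 FPKM or more. Likeness was the root mean square difference of the log2(FPKM + 0.1) profiles after each was centred on its mean. For Met these were Tnfrsf23 (0.059), Gpc4 (0.067) and Cd276 (0.072). For Btc they were Ppp2r2b (0.058), Dsp (0.092) and Kdelr3 (0.103). Since they were picked for likeness to genes that fell, all 6 were lower with cisplatin by that choice. Gpc4, a glypican, had 12.6 ± 0.282 FPKM in control and 3.67 ± 0.334 FPKM with cisplatin. Dsp, a desmosome protein, had 3.21 ± 0.0675 and 0.404 ± 0.0782 FPKM (SD, n = 3 each). With 6 libraries in 2 groups, such likeness rests mainly on the difference between the groups.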

How the data were processed

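RNA-seq libraries of 6 T-cell co-cultures were analysed. Per the submitters' processing notes, reads were cleaned with fastp, aligned to mm10 with HISAT2 2.0.5 and counted with featureCounts 1.5.0-p3, whereas the paper's methods name LifeScope. The authors deposited FPKM values, and no counts were used from elsewhere. Library groups were taken from the treatment labels and table columns were matched by sample title. Gene coordinates were those of GENCODE M21 (GRCm38) for 53499 of 54409 shared genes. The deposited gene lengths were used as they stand.

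FPKM times gene length was a whole multiple of 1 step per library (100% of values within 0.1 of a whole read), which gave the reads. Even numbers made up 57.6% to 62.1% of the values from 1 to 20 reads, and more genes had 2 reads than 1 in every library, so reads are not independent fragments and counting errors are too small. The FPKM denominator was on average 1.04 times the reads on genes in the cisplatin libraries and 0.980 times in control. Replicates differed by more than sampling noise (chi-square per degree of freedom 5.35 to 6.44).

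Tests used limma 3.58.1 (R 4.3.3; lmFit, eBayes with trend) on log2(FPKM + 0.1), all 6 libraries, no covariates. The labels give no batch. The main test was not a count model, since the unit is FPKM, and voom on the rebuilt reads was an alternative. Tables and figures were made with python 3.11.15, pandas 2.3.3 and matplotlib 3.10.9. The genes described, the pathway and marker lists and the tests were chosen with earlier results of these data known. Up to 4 genes of a list were named, those with the largest log2 fold change among genes past the adjusted p with a mean of at least 1 FPKM, plus all other family receptors and ligands. Alternatives were other pseudocounts, minimum levels, scalings, thresholds, no trend, left-out replicates and a replicate block. FPKM rescaled by the rebuilt reads was chosen after seeing the data.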

Additional observations from a re-analysis of the deposited data

How the results depend on the processing

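Of 21 alternatives, 20 gave 7 of the receptors and ligands called lower and 0 called higher. The exception was centring on the ID8 markers, with 0 called lower and 2 called higher. On that scale 156 of all 15874 tested genes were called lower and 13777 higher, with a median log2 fold change of 2.25. On that scale the log2 fold changes that turned positive among the receptors and ligands were 0.86 for Erbb3, 0.48 for Met, 0.76 for Hbegf, 0.62 for Tgfa and 2.06 for Ereg, and, among the pathway genes named in the text, 0.57 for Adam9, 1.25 for Adam10, 1.99 for Adam17, 0.28 for Rhbdf1, 0.93 for Rhbdf2, 0.65 for Dusp6, 0.51 for Errfi1, 0.72 for Etv4, 0.19 for Itgb4, 0.55 for Plxnb1, 0.59 for Phlda1, 1.65 for Lrig1, 1.72 for Ptprj, 1.45 for Socs5, 0.92 for Map2k1, 0.55 for Ptk2 and 0.58 for Src. By construction this scaling raises every gene alike. Ereg, not called, was -0.74 (adjusted p 0.015 from limma) after centring on the T-cell markers, 0.014 after quantile normalization and ranged from -0.28 to 0.042 with 1 replicate left out (0.042 without control replicate 1), and Mst1 was -0.078 after centring on the T-cell markers. Areg ranged from 0.20 to 1.11 on the log2 scale over the other alternatives (adjusted p 0.082 to 0.72 from limma).

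Of all tested genes, 2034 were called lower and 653 higher. This was 156 and 13777 after centring on the ID8 markers, 3760 and 139 after centring on the T-cell markers, and 4603 and 4360 without a minimum fold change. The genes called higher were 311 with a pseudocount of 1 and 1127 with voom. Leaving out each replicate gave 1963 to 2045 lower and 579 to 692 higher. With the replicate number as a block (replicate block) 2011 were lower and 651 higher, with 7 of the receptors and ligands lower. Libraries with the same number did not deviate together (correlations of 0.0229, -0.0630 and -0.0207), so no strong shared effect of the number was seen. Whether the numbers pair them is not given. Depth limits Areg, with as few as 14 reads in a library, and Nrg1.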
